A study of Mus musculus with 3 samples.

Results

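Secondary granule transcripts of neutrophils were followed in peripheral blood (PB) leukocytes of naive and leukemia-bearing mice. The 10 genes, of 32285 features in the count tables, were Ltf, Camp, Ngp, Lcn2, Chil3, Mmp8, Olfm4, Cebpe, Wfdc21 and Anxa3. They were selected on readout, with their levels in the neutrophils of these libraries already known, so that their differences between libraries are a description and were not tested. The study profiled PB leukocytes by single-cell RNA-seq (scRNA-seq) in 3 libraries, 1 for each condition. The naive library came from wild-type Balb/C mice, whose age and sex the methods do not give. Mice for engraftment are described in the methods as females of that strain, of young adult age. The D11 and D14 libraries came from mice of that strain 11 and 14 days after engraftment with BBC2 cells, a line grown from a pro-B-cell-like leukemia that stem cells carrying the BCR-FGFR1 fusion kinase gave rise to. Red cells had been lysed and dead cells removed before capture, BBC2 is a single established line, and the number of mice in each library is not given in the sources used here.

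Neutrophils store antimicrobial proteins in granules that are filled one class after another as the cell matures in the bone marrow. The azurophil (primary) granules are filled at the promyelocyte stage, the secondary (specific) granules at the myelocyte and metamyelocyte stage, and the gelatinase granules later still. Transcripts of secondary granule proteins therefore mark cells that are still maturing, and they fade in segmented neutrophils, which are the usual form in blood. Ltf encodes lactoferrin, which binds iron, Camp the cathelicidin precursor, Ngp neutrophilic granule protein, a cystatin relative, and Lcn2 neutrophil gelatinase-associated lipocalin, which binds bacterial siderophores. Mmp8 encodes neutrophil collagenase and Olfm4 olfactomedin 4, a matrix glycoprotein found in a subset of neutrophils. Chil3 encodes the chitinase-like protein Ym1, Anxa3 a calcium- and phospholipid-binding annexin, Wfdc21 a whey acidic protein domain protein, and Cebpe the transcription factor C/EBP epsilon, which is needed for expression of secondary granule genes.

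The genes lie on 6 chromosomes of GRCm38 by GENCODE vM21, and all 10 are annotated as protein coding. Camp (chr9:109847379-109849617), Ngp (chr9:110419747-110423012) and Ltf (chr9:111019271-111042767) lie in this order within 1195 kb of chromosome 9, with Mmp8 (chr9:7558456-7568485) far from them on the same chromosome. RefSeq promoter entries (GRCm38.p6) were given for 7 of the 10, and not for Cebpe, Wfdc21 and Anxa3. The 250 bases before each start were searched on both strands for TTNNGCAA, a loose form of the site that C/EBP factors are known to bind. It was found for Ltf, Ngp, Lcn2 and Mmp8, 4 of the 7, and in 9.56% of all 32851 promoters. Camp, Chil3 and Olfm4 held no match, which says only that these letters are not in this window. By GENCODE, 197 of the 250 bases for Lcn2 and 161 of those for Camp are exonic. The windows of Lcn2 and Olfm4 lie inside their annotated genes, so that their results do not describe the sequence before the GENCODE start. The windows of Ltf, Ngp and Mmp8 are shown with their matches in capitals, beside that of Chil3, the gene with the largest ratio in neutrophils. Where GENCODE places the first exon upstream of the RefSeq start, the exonic bases were left off.
Ltf, plus strand, chr9:111019042-111019270: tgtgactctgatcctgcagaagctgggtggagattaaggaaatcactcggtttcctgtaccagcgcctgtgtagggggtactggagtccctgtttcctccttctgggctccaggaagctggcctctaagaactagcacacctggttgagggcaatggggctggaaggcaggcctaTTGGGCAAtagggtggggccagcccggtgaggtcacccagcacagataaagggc
Ngp, plus strand, chr9:110419558-110419746: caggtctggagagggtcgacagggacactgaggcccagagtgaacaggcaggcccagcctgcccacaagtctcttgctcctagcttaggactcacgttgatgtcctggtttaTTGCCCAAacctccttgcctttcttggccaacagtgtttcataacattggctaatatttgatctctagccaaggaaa
Mmp8, plus strand, chr9:7558179-7558428: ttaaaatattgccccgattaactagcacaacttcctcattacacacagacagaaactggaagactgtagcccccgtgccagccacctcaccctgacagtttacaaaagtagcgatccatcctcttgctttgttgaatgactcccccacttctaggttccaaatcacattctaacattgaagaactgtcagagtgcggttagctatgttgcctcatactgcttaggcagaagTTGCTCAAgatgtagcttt
Chil3, minus strand, chr3:106167565-106167814: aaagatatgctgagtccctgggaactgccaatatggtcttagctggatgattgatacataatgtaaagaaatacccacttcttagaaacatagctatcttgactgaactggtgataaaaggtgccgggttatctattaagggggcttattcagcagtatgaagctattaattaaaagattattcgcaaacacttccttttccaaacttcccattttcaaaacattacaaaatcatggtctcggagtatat
The match of Ltf began 75 bases before the RefSeq start and that of Mmp8 19 bases before it. Ngp held 2 matches, 138 and 11 bases before the start, of which the nearer lies in the part left off, and that of Lcn2 began 216 bases before its start. A letter match is a description of the sequence and not evidence of binding.

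Cells entered if they held 200 genes or more and if mitochondrial genes took no more than 10% of their UMIs, so that 3811 naive, 4567 D11 and 4414 D14 cells remained from libraries of 30362408 to 65861863 UMIs. A neutrophil was a cell with S100a8 and S100a9 together at 2% of its UMIs or more, which gave 1227 naive, 1609 D11 and 1065 D14 neutrophils with medians of 3544, 3500 and 4963 UMIs. Hemoglobin genes took 11.2%, 55.9% and 22.5% of all UMIs of the naive, D11 and D14 libraries, although red cells had been lysed. Csf3r, the G-CSF receptor, was found in 97.5% to 99.7% of the gated neutrophils, whereas Ly6g was found in 10.4%, 30.9% and 54.9%. The libraries shared 12 to 18 cell barcodes in pairs, of which at most 1 was a neutrophil in both. Among monocyte markers in the gated cells, Csf1r stood at 161 CPM in naive and 88.2 CPM in D14, Ccr2 at 38.6 and 51.4 CPM, and Ly6c2 at 61.6 and 238 CPM. These 3 markers summed to 261, 330 and 378 CPM in naive, D11 and D14. The 4 eosinophil and basophil markers Prg2, Siglecf, Mcpt8 and Cpa3 summed to 8.16, 4.65 and 3.92 CPM, and Prg2, Mcpt8 and Cpa3 were at or near 0.

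All 10 genes were higher in D11 than in naive neutrophils, and higher again in D14. Levels are UMIs summed over the neutrophils of a library and scaled to a total of 1000000 (CPM), with exact Poisson 95% intervals that cover counting error only. With 1 library for each condition, a difference between conditions cannot be told apart from one between libraries, and both leukemic libraries were set against the same naive one. UMIs of 3′ tags are not divided by gene length.

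Of the genes for granule content, Ltf stood at 238 CPM (224 to 252) in naive, 981 CPM (958 to 1004) in D11 and 2055 CPM (2021 to 2090) in D14. Camp stood at 947 CPM (920 to 974), 2092 CPM (2059 to 2125) and 3019 CPM (2977 to 3061) in the same order. Ngp stood at 997 CPM (969 to 1025), 3180 CPM (3140 to 3221) and 6969 CPM (6906 to 7033), and was the most abundant of the 10 in each library by UMIs. Each was higher in D11 than in naive and higher again in D14. In D14 over naive they were 8.65-fold, 3.19-fold and 6.99-fold higher, and Camp, which nearly matched Ngp in the naive library, had the smallest ratio of the 3. Lcn2 stood at 699 CPM (676 to 723), 2246 CPM (2211 to 2280) and 4910 CPM (4857 to 4964), 7.03-fold higher in D14 than in naive.

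Mmp8 stood at 378 CPM (361 to 396) in naive, 866 CPM (845 to 888) in D11 and 2561 CPM (2522 to 2600) in D14, a 6.77-fold difference of which more fell between D11 and D14 (2.96-fold) than between naive and D11 (2.29-fold). Olfm4 stood at 51.6 CPM (45.5 to 58.4), 275 CPM (263 to 287) and 601 CPM (582 to 620), 11.6-fold higher in D14 than in naive. Both are proteins of the secondary granule. Wfdc21 stood at 790 CPM (765 to 815), 1351 CPM (1324 to 1378) and 3108 CPM (3066 to 3151), with a smaller first step of 1.71-fold and a second of 2.30-fold.

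Chil3, which is also a gene of alternatively activated macrophages, had the largest ratio. It stood at 25.9 CPM (21.6 to 30.8) in naive, 95.8 CPM (88.8 to 103) in D11 and 653 CPM (633 to 673) in D14, 25.2-fold higher in D14 than in naive (21.1 to 30.3), and 6.81-fold of this lay between D11 and D14. Anxa3 stood at 25.7 CPM (21.4 to 30.6), 96.6 CPM (89.6 to 104) and 187 CPM (176 to 197), 7.26-fold higher in D14 than in naive. Anxa3 and Chil3 began from the same level in naive neutrophils and had nearly the same level in D11, then parted in D14. Cebpe, the regulator, was low and had the smallest ratio, at 26.7 CPM (22.4 to 31.7), 40.9 CPM (36.4 to 45.8) and 56.4 CPM (50.8 to 62.4), 2.11-fold higher in D14 than in naive (1.72 to 2.59). With neutrophils gated without S100a8 and S100a9, the log2 ratio of Cebpe in D14 over naive was 0.25 in place of 1.08. That gate held 1774 D14 cells in place of 1065. It left 49 D14 classical monocytes in place of 112, so that it also took in cells otherwise classed as monocytes.

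**Figure D1:**
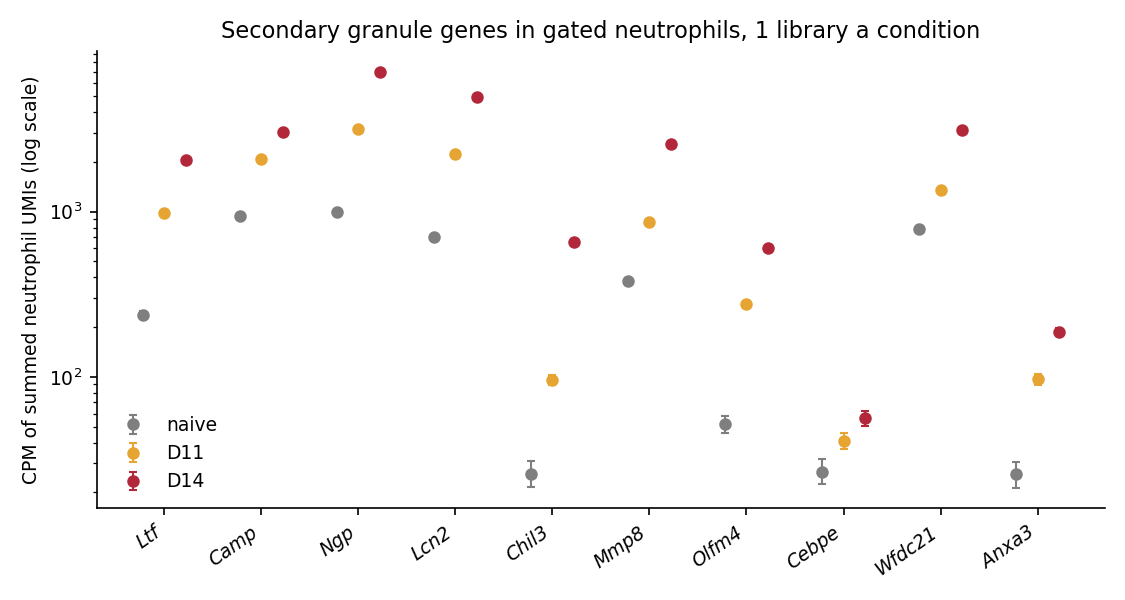
Levels of the 10 genes in gated neutrophils (CPM of summed UMIs, log scale) in the naive (grey), D11 (orange) and D14 (red) libraries, 1 library each, with exact Poisson 95% intervals as bars. The points of every gene stand in the order naive, D11, D14, with the widest gap for Chil3 (25.9 to 653 CPM) and the narrowest for Cebpe (26.7 to 56.4 CPM).

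Against the background of all genes the same comparisons are given here, with nothing read from the counts, since the genes were selected on them. Of 2810 genes that averaged 50 CPM or more, 1.21% were 2-fold or more higher in D11 than in naive neutrophils and 1.32% 2-fold or more lower. Of the 10 secondary granule genes, 9 passed this minimum (all but Cebpe), and 8 of the 9 were 2-fold higher and none lower. Chil3 and Anxa3, under 50 CPM in naive, passed it only through the leukemic libraries, so that their being 2-fold higher was fixed by the minimum. In D14 over naive, 5.92% of 2840 genes were 2-fold higher and 7.36% lower, against 9 of 9 higher, and Chil3 ranked first of all genes compared. In D14 over D11, 2.94% of 2725 genes were higher and 1.98% lower, against 7 of 9 higher, with Camp at 1.44-fold and Anxa3 at 1.93-fold. The median log2 ratio of the 10 genes was 1.68 in D11 and 2.81 in D14 over naive, and that of all genes compared was -0.19 in both. Without gated cells that passed another gate, the median of the 10 was 1.49 and 2.85. TMM factors moved all log2 ratios up by 0.22 in D11 and 0.13 in D14, while some other settings gave lower ratios than those reported. By any size, 27.0% of genes were higher in D11 than in naive neutrophils and 73.0% lower, 35.3% were higher in D14 than in naive and 64.7% lower, and 49.5% were higher in D14 than in D11. Together the 10 genes took 4178, 11223 and 24119 CPM in naive, D11 and D14 neutrophils.

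S100a8 and S100a9, which set the gate, themselves stood 1.75-fold and 1.56-fold higher in D14 than in naive neutrophils. Just below the gate, cells with 1% to 2% of these UMIs had a summed level of the 10 genes of 435 CPM in naive, 1117 CPM in D11 and 4716 CPM in D14. Just above it, at 2% to 3%, the summed levels were 537, 997 and 7439 CPM. On both sides of the gate D14 was highest and naive lowest.

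The UMIs of these genes were spread over cells in unlike ways. In the naive library, 2 of 1227 neutrophils held 50% of all Camp UMIs, and 3 held 50% of those of Ltf, Ngp and Chil3. A single naive cell carried 1742 of the 4640 Camp UMIs and 1670 of 4887 Ngp UMIs were in 1 cell, so that the naive levels of these genes rest on a few cells. In D14, 50% of the UMIs lay in 43 cells for Ltf, 32 for Camp, 58 for Ngp and 31 for Chil3, of 1065. Mmp8 and Wfdc21 were already broad in the naive library, where 98 and 112 cells held 50% of their UMIs, and Lcn2 was between with 38. As a mean over cells, in which each cell has equal weight, the log2 ratios of D14 over naive were larger for Ltf (4.27 in place of 3.11), Camp (2.88 in place of 1.67) and Ngp (4.02 in place of 2.81).

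To compare shares of cells across depths, each cell was thinned to 1000 UMIs, which left out 8, 14 and 22 shallower neutrophils. Ltf was then found in 1.72% of naive neutrophils, 6.83% of D11 and 20.4% of D14. Camp was found in 1.31%, 8.71% and 24.8%, and Ngp in 1.89%, 15.7% and 48.8%. These 3 transcripts were thus nearly confined to a small share of naive cells, and Ngp reached the larger share in D14. Lcn2 went from 25.02% to 46.3% and 81.7%, Mmp8 from 21.5% to 34.2% and 74.8%, and Wfdc21 from 36.5% to 49.8% and 80.4%. These were present in a broad part of naive neutrophils and in most D14 ones. Chil3 went from 0.656% to 2.51% and 18.9%, Anxa3 from 0.984% to 4.20% and 12.3%, Olfm4 from 2.54% to 11.5% and 19.4%, and Cebpe from 1.89% to 2.57% and 3.84%. The intervals of Cebpe overlapped between each pair of libraries. Without thinning, the shares in D14 were 30.5% for Ltf, 66.2% for Ngp, 93.8% for Lcn2 and 15.5% for Cebpe.

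B cells, which should lack most of these transcripts, were set beside them as a measure of free RNA, with medians of 6051, 5438 and 6192 UMIs before thinning. At 1000 UMIs none of 392 naive, 253 D11 or 41 D14 B cells held Ltf, Cebpe or Anxa3. The highest share of B cells was 7.32% for Ngp in D14 (3 of 41 cells), and the next 4.88% for Wfdc21 in D14 (2 cells). Neutrophil shares of every gene lay above the B cell share of the same library. Only for Wfdc21 did naive B cells show more than 1%, at 2.04% (8 of 392 cells). Relative to S100a8 and S100a9, naive B cells held 17.0 times as much Wfdc21 as neutrophils did and D11 B cells 3.39 times, so that B cells give no measure of free RNA for this gene.

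**Figure D2:**
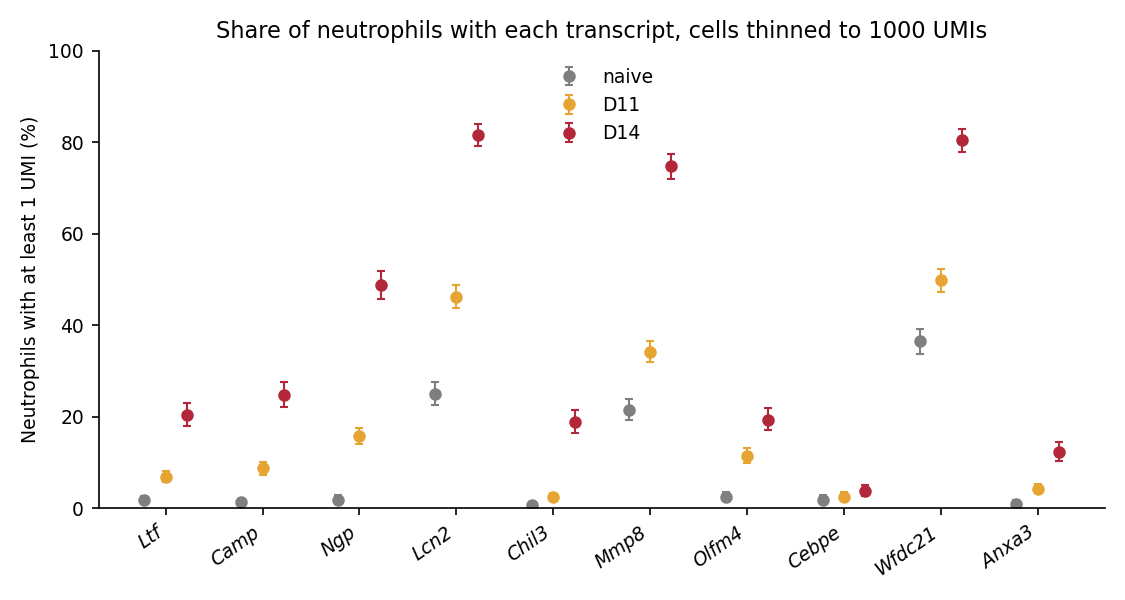
Share of neutrophils with at least 1 UMI of each gene (%), after each cell was thinned to 1000 UMIs, in the naive (grey), D11 (orange) and D14 (red) libraries, with Clopper-Pearson 95% intervals as bars. Lcn2, Mmp8 and Wfdc21 reach 81.7%, 74.8% and 80.4% in D14, and Ltf, Camp, Chil3, Olfm4 and Anxa3 stay at 24.8% or below.

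By number of the 10 transcripts found in a thinned cell, 37.2% of naive neutrophils, 23.9% of D11 and 2.21% of D14 held none. At least 5 were found together in 1.23% (0.690% to 2.02%) of naive, 9.15% (7.78% to 10.7%) of D11 and 32.1% (29.3% to 35.05%) of D14 neutrophils.

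Neutrophils in which Ltf, Camp and Ngp together made up at least 1% of UMIs, called granule-rich here, were counted in each library. There were 13 such cells in naive, 1.06% of neutrophils (0.565% to 1.80%), 107 in D11, 6.65% (5.48% to 7.98%), and 203 in D14, 19.1% (16.7% to 21.6%). No UMI of the 3 genes was found in 93.1%, 71.8% and 28.2% of neutrophils. A further 67 naive cells lay above none and under 0.1%, against 246 in D11 and 294 in D14. Just below the cut, from 0.5% to 1%, there were 1 naive, 16 D11 and 68 D14 cells, and just above it, from 1% to 2%, 1, 33 and 53. A cut at 0.5% gave a D14 share of 25.4% and one at 2% gave 14.1%, against 1.14% and 0.978% in naive. Granule-rich cells were deeper, with medians of 10732, 8048 and 8788 UMIs against 3524, 3411 and 4488 in the other neutrophils, and had more S100a8 and S100a9, with 30.3%, 22.8% and 22.5% of UMIs against 7.97%, 9.63% and 12.9%. With the wider gate without S100a8 and S100a9, 12.7% of the 1774 D14 cells so gated were granule-rich.

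**Figure D3:**
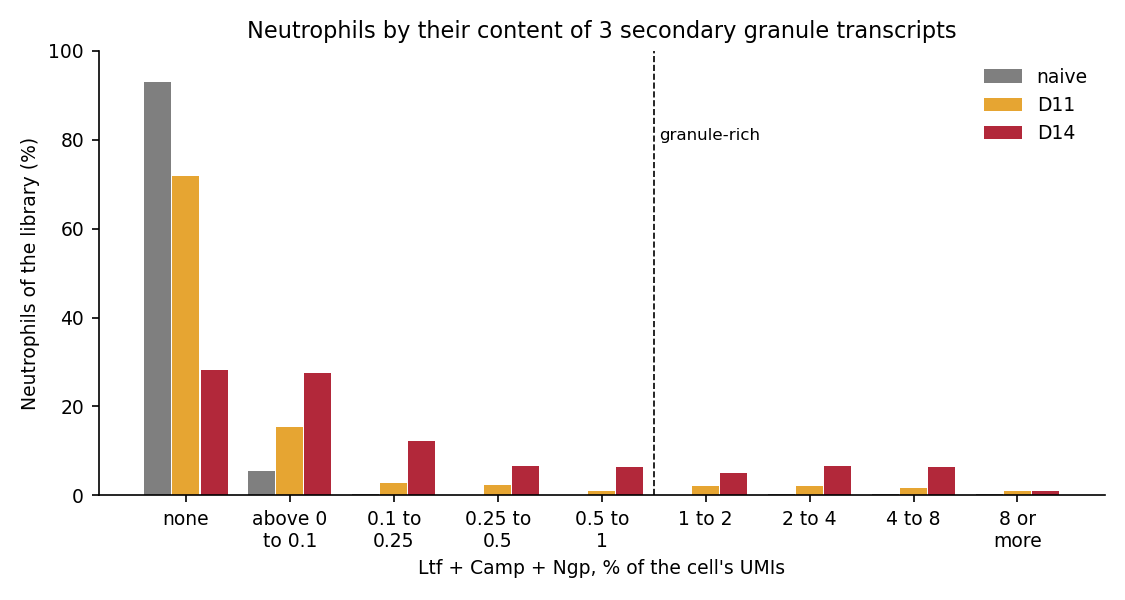
Neutrophils of each library (% of its neutrophils) by the percent of the cell's UMIs that were Ltf, Camp or Ngp, in the naive (grey), D11 (orange) and D14 (red) libraries. Most naive cells lie at none (93.1%), and 1.06% lie to the right of the dashed line at 1%. Every bin holds cells of each library, and 19.1% of D14 cells lie to the right of that line.

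Within granule-rich cells Ltf, Anxa3 and Lcn2 stood at close levels in the 3 libraries, while Camp and Cebpe were lower in D14 than in naive. The cut sets a lower bound of 1% of UMIs on Ltf, Camp and Ngp together in each of these cells, so that their levels here are not independent of it. Ltf stood at 7565 CPM in naive, 7095 CPM in D11 and 7259 CPM in D14 granule-rich cells, and the interval of the log2 ratio of D14 over naive was -0.15 to 0.03. Anxa3 stood at 457, 474 and 453 CPM, and Lcn2 at 8447, 8917 and 9549 CPM. Camp, by contrast, was lower in each step, at 30498, 15001 and 10512 CPM, and Cebpe likewise, at 345, 199 and 147 CPM. Ngp stood at 31771 CPM in the 13 naive cells and at 21437 and 21935 CPM in D11 and D14. Mmp8 went the other way, at 1366, 2454 and 3322 CPM. Olfm4 stood at 1005 and 1156 CPM in D11 and D14, and its 71 naive UMIs (471 CPM) all lay in 1 cell. Chil3 stood at 623, 590 and 1465 CPM. Wfdc21 stood at 4900, 3460 and 4661 CPM. The naive values rest on 13 cells, which the counting intervals do not cover.

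In the other neutrophils, which by the cut hold little Ltf, Camp and Ngp, the genes were higher in D14 than in naive as well. Ngp stood at 19.997 CPM in naive, 333 CPM in D11 and 1291 CPM in D14. Lcn2 stood at 453, 1205 and 3150 CPM, Mmp8 at 347, 618 and 2272 CPM, and Wfdc21 at 659, 1022 and 2519 CPM. These 3 genes for gelatinase-associated lipocalin, collagenase and a whey acidic protein were in 92.3%, 87.0% and 92.2% of these D14 cells. Chil3 stood at 6.95, 18.7 and 344 CPM, Olfm4 at 38.3, 161 and 390 CPM and Anxa3 at 12.0, 37.8 and 85.4 CPM. Cebpe differed by no more than counting error between D14 (21.8 CPM) and naive (16.6 CPM), with a log2 ratio of 0.39 (-0.04 to 0.83).

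The share of each transcript's UMIs that lay in granule-rich cells split the 10 genes in D14. It was 97.2% for Ltf, 95.8% for Camp and 86.6% for Ngp, the 3 genes that defined the cells. Of the 7 genes that did not define them, Cebpe had 71.9% there, Anxa3 66.8%, Chil3 61.8%, Lcn2 53.5%, Olfm4 53.0%, Wfdc21 41.2% and Mmp8 35.7%. These cells were 19.1% of D14 neutrophils and deeper, so that a gene at equal CPM in both would also pass that share. In CPM, Mmp8 and Wfdc21 were only 1.46-fold and 1.85-fold higher in granule-rich than in other D14 cells, the lowest ratios of the 7. In the naive library, where 1.06% of cells were granule-rich, Chil3 had 74.0%, Anxa3 54.8%, Cebpe 39.7%, Lcn2 37.2%, Olfm4 28.1%, Wfdc21 19.1% and Mmp8 11.1%. Mmp8 and Wfdc21 had the lowest shares in all 3 libraries. Olfm4 was patchy even among granule-rich cells, found in 7.69%, 30.8% and 29.6% of them, whereas Anxa3, at a lower level, was found in 92.3%, 92.5% and 89.2%.

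**Figure D4:**
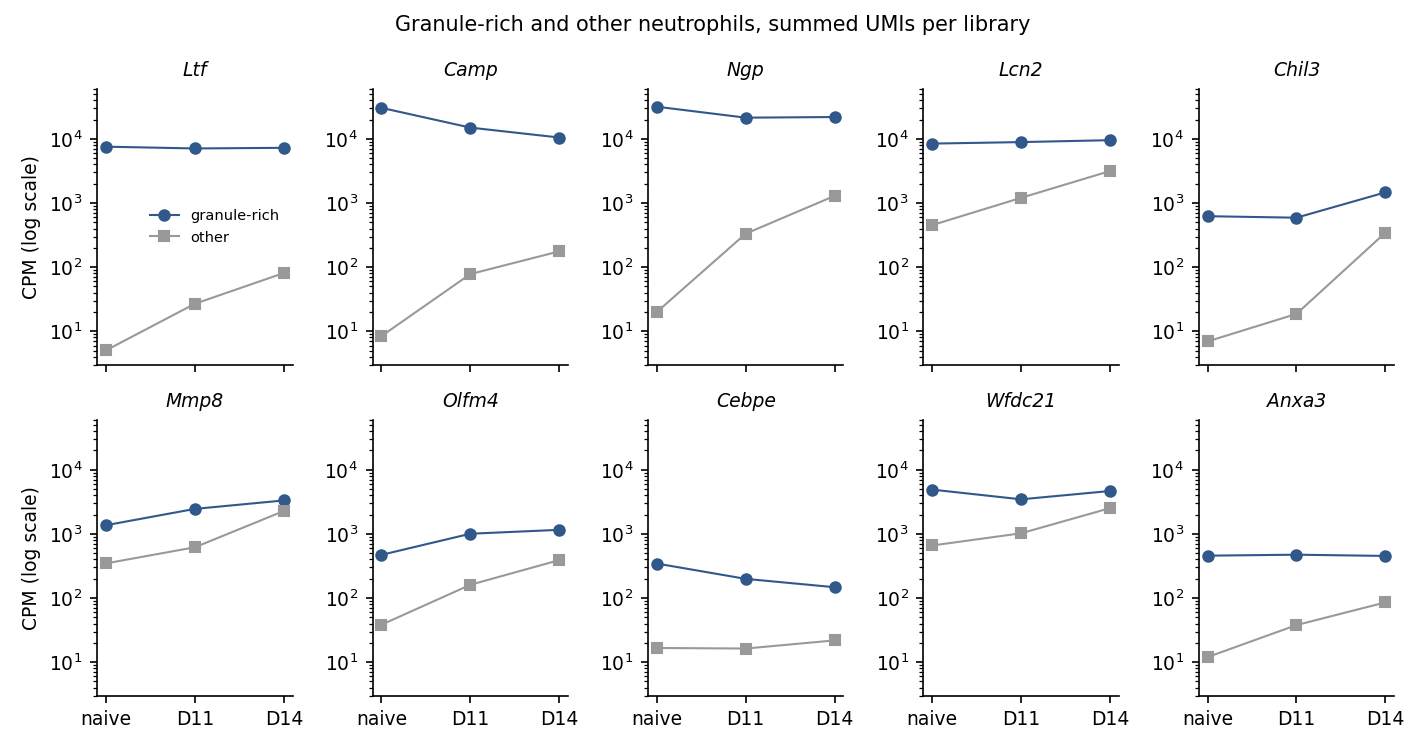
Level of each gene (CPM, log scale) in granule-rich neutrophils (blue circles, 13, 107 and 203 cells) and in the other neutrophils (grey squares) of the naive, D11 and D14 libraries. Ltf in granule-rich cells is level (7565 to 7259 CPM) and Camp is lower in D14 (30498 to 10512 CPM), while the grey squares of Ngp go from 19.997 to 1291 CPM.

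Over single neutrophils, Pearson r of log(1 + UMIs per 10000) described which genes went together, with no test since the cells of a library share it. Ltf and Camp had the closest relation, with r of 0.886 over 1227 naive cells, 0.907 over 1609 D11 cells and 0.886 over 1065 D14 cells. Olfm4 had the weakest relation to the sum of the other 9 genes, with 0.077, 0.226 and 0.153. Mmp8 followed Lcn2 (0.497 in D14) more closely than Ltf (0.234), but followed Ngp about as closely (0.481). Its r with Ngp was 0.168 in naive and 0.549 in D11, against 0.144 and 0.454 with Lcn2. Among 2438 genes with at least 50 CPM in each library, the 10 whose levels over cells were most like the sum of the 10 members, by the lowest r of the 3 libraries, were S100a9, S100a8, Lyz2, Ly6g, Retnlg, Lgals3, Ifitm6, Anxa1, Cybb and Gapdh. Their lowest r ran from 0.213 (Gapdh) to 0.461 (S100a9), with S100a8 and S100a9 being the genes of the gate, and all points of an r share 1 library. By Spearman rho in place of r, Ifitm6, Cybb and Gapdh were not among the 10 closest.

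Most genes of a wider granule list were higher too, with a smaller median ratio. The list holds 17 genes of specific, gelatinase and secretory granules or linked to neutrophils, and was chosen with earlier results of these data known. Of the 17, 16 were higher in D14 than in naive neutrophils, beside 35.3% of all genes compared. Of them 10 were 2-fold or more higher, beside 5.92%, and the median log2 ratio of the list was 1.14. Ly6g, a surface antigen of mouse neutrophils, went from 79.6 to 574 CPM, and Cybb, the NADPH oxidase subunit gp91phox, from 179 to 702 CPM. Itgb2l and Cd177 were higher by 3.32 and 2.99 on the log2 scale, above the median of 2.81 of the 10 secondary granule genes. Itgb2l was scarce, with 7 naive UMIs in granule-rich and 11 in other neutrophils. It was the only one of the 17 that did not average the 50 CPM that the shares of all genes require. Slpi, a secretory protease inhibitor, was lower (log2 ratio -0.23). In granule-rich over other neutrophils of D14, 14 of the 17 were higher (median log2 ratio 0.86), beside 34.3% of the 2709 genes at 50 CPM or more, with Ly6g at 1315 against 293 CPM and Cybb at 1593 against 364 CPM.

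Genes of azurophil granules, which are filled earlier, were scarce. Of Mpo, Elane, Prtn3, Ctsg, Ms4a3 and Prss57, none reached 50 CPM as a mean of any 2 libraries compared. The 6 together took 92.8 CPM in naive granule-rich cells against 2.32 CPM in the other naive neutrophils, and 8.22 against 137 CPM in D14. The naive granule-rich value rests on 7 Ms4a3 UMIs in 1 cell, 3 of Prss57 in 1 cell and 4 of Prtn3 in 2 cells. Over all neutrophils Prtn3 was 18.9-fold higher in D14 than in naive, and Elane and Mpo, with no naive UMI, were at least 63.5-fold and 26.1-fold higher against a floor of 3 counts in the naive library. In D14, 1 cell held 250 of the 258 Elane UMIs, 1 held 100 of the 106 of Mpo and 1 held 181 of the 256 of Prtn3. Mpo and Elane had no UMI in the granule-rich cells of any library. Their levels in the other D14 neutrophils were 22.0 and 53.6 CPM.

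Genes of mature neutrophils lay in both directions, with 5 of 12 higher and 7 lower in D14 than in naive neutrophils and a median log2 ratio of -0.25, beside 64.7% of all genes lower and their median of -0.19. Retnlg, a resistin-like secreted protein, was the only one 2-fold higher, from 2785 to 14198 CPM, while Csf3r and Il1b had log2 ratios of -1.34 and -1.18. Granule-rich cells of D14 had lower levels of all 12 than the other D14 neutrophils, beside 65.7% of all genes, among them Il1b (244 against 2150 CPM), Csf3r (509 against 1805 CPM), Cxcr2 (675 against 1402 CPM) and Ccl6 (220 against 1266 CPM). In naive and D11 cells, 11 of 12 were lower, beside 66.4% and 65.1% of all genes, and Retnlg was higher, at 5848 against 2687 CPM and 12351 against 6103 CPM. Of 8 granulopoiesis factors, 3 were higher and 5 lower in D14 than in naive neutrophils (median log2 ratio -0.36), beside 35.3% higher and 64.7% lower among all genes. Klf5 and Myb were 2-fold higher, beside 5.92% of all genes. Of the 8, 5 averaged the 50 CPM that the shares of all genes require. Myb was scarce, at 1.68 CPM in naive and 18.9 CPM in D14 neutrophils that were not granule-rich. Cebpb, another C/EBP factor, stood opposite to Cebpe in granule-rich cells of D14, at 412 CPM against 1061 CPM in the other cells.

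Of 10 cell cycle genes, 9 were higher in D14 than in naive neutrophils (median log2 ratio 1.58) and 9 lower in D11 than in naive (-0.61), beside 35.3% higher and 73.0% lower among all genes at 50 CPM or more. Only 1 of the 10 averaged 50 CPM or more, so that the shares of all genes given here describe more abundant genes. Without the gated cells that passed another gate as well, the D14 median was -0.18, the opposite direction. Of the 13 naive granule-rich cells, Top2a, Pclaf, Tk1, Birc5, Cdk1, Ube2c and Tuba1b were each found in 1, and Mki67 in 3, with 24 of its 27 UMIs in 1 cell (179 CPM, against 11.4 CPM in the other naive neutrophils). In D14, 9 of the 10 were lower in granule-rich than in other neutrophils, beside 65.7% of all genes, among them Mki67 at 14.8 against 39.1 CPM. Gated cells that passed another gate were kept here, and the comparison was not repeated without them.

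Outside neutrophils the 10 genes were mostly low, and 95.2%, 96.9% and 93.8% of their UMIs in kept cells lay in neutrophils of naive, D11 and D14. Classical monocytes (143, 229 and 112 cells by marker gate) were the exception for a part of them. Chil3 stood at 122 CPM in naive, 249 CPM in D11 and 1113 CPM in D14 classical monocytes, above the neutrophils of each library as a whole. Granule-rich neutrophils held more, at 623, 590 and 1465 CPM. Lcn2 stood at 8.69, 18.8 and 215 CPM and Wfdc21 at 3.26, 13.6 and 153 CPM, both with the larger step from D11 to D14. Mmp8 stood at 94.0, 96.7 and 137 CPM, Anxa3 at 27.2, 30.2 and 42.5 CPM and Cebpe at 9.78, 13.3 and 14.8 CPM, changes of at most 1.56-fold. For Anxa3 the naive level was close to the 25.7 CPM of naive neutrophils. Ltf, Camp, Ngp and Olfm4 stayed at 5.21 CPM or below in all 3 libraries. In D14 over naive, 2.92% of 3566 genes that averaged 50 CPM or more were 2-fold higher in classical monocytes, against 3 of the 4 members that passed that minimum (Chil3, Lcn2 and Wfdc21, not Mmp8), with log2 ratios of 3.19, 4.63 and 5.55. Lcn2 and Wfdc21 passed it only through their D14 levels, so that their being 2-fold higher was fixed by the minimum. Nothing is read from this count.

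In D14 classical monocytes the proportion of Ngp to Lcn2 was below that of neutrophils. There, 12 Ngp UMIs stood beside 536 of Lcn2, 2.24 for every 100. Lymphocytes held 31 of each, leukemia cells 122 beside 104, and non-classical monocytes 125 beside 140. In D14 neutrophils there were 230 Ngp UMIs for every 100 of Lcn2 in granule-rich cells and 41.0 in the others. The value of all D14 neutrophils together, 142, mixes both kinds of cells. It was 143 in naive and 142 in D11 neutrophils, although 1.06% and 6.65% of these were granule-rich, against 19.1% in D14. D11 classical monocytes had 6 beside 58, 10.3 for every 100, below the 27.6 of D11 neutrophils that were not granule-rich. In naive ones 5 stood beside 16, 31.25 for every 100, between the 4.42 of other and the 376 of granule-rich naive neutrophils. S100a8, a gene of the neutrophil gate, stood at 255, 575 and 2049 CPM in the classical monocytes of naive, D11 and D14. Relative to S100a8 and S100a9, these cells held 1.43, 0.926 and 2.11 times as much Lcn2 as the neutrophils of the same library. For Wfdc21 the values were 0.474, 1.11 and 2.37, and for Chil3 539, 287 and 82.1. Lymphocytes had 1.07, 1.17 and 1.47 for Lcn2, and 3.83, 1.95 and 1.496 for Wfdc21. Their values for Chil3 were 2.31, 2.495 and 1.42. The monocyte values of Lcn2 in D11 and of Wfdc21 in naive and D11 were thus below those of lymphocytes. In naive the 1.43 of Lcn2 was close to the 1.47 of B cells. In D14 both genes were above the lymphocyte values, and Chil3 was above them in each library. In monocytes with under 0.5% of S100a8 and S100a9, the D14 over naive log2 ratios were 6.67 (4.80 to 9.73) for Lcn2, 7.33 (4.83 to 12.6) for Wfdc21 and 2.89 (2.67 to 3.11) for Chil3, the first 2 against very few naive UMIs.

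Non-classical monocytes (149, 226 and 647 cells) had lower levels, with Chil3 at 19.9, 34.9 and 75.4 CPM and Lcn2 at 4.60, 9.77 and 20.9 CPM. Anxa3 went against its direction in neutrophils there, at 20.7, 12.1 and 5.96 CPM, a D14 over naive log2 ratio of -1.80 (-2.54 to -1.03). In B, T and NK cells no member passed 44.2 CPM (Ngp in 41 D14 B cells, 14 UMIs), and in naive B cells Wfdc21 stood at 31.6 CPM, above the other 9 genes. In leukemia cells (105 in D11 and 654 in D14, by pro-B-cell markers) all 10 stood at 6.55 CPM or below.

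**Figure D5:**
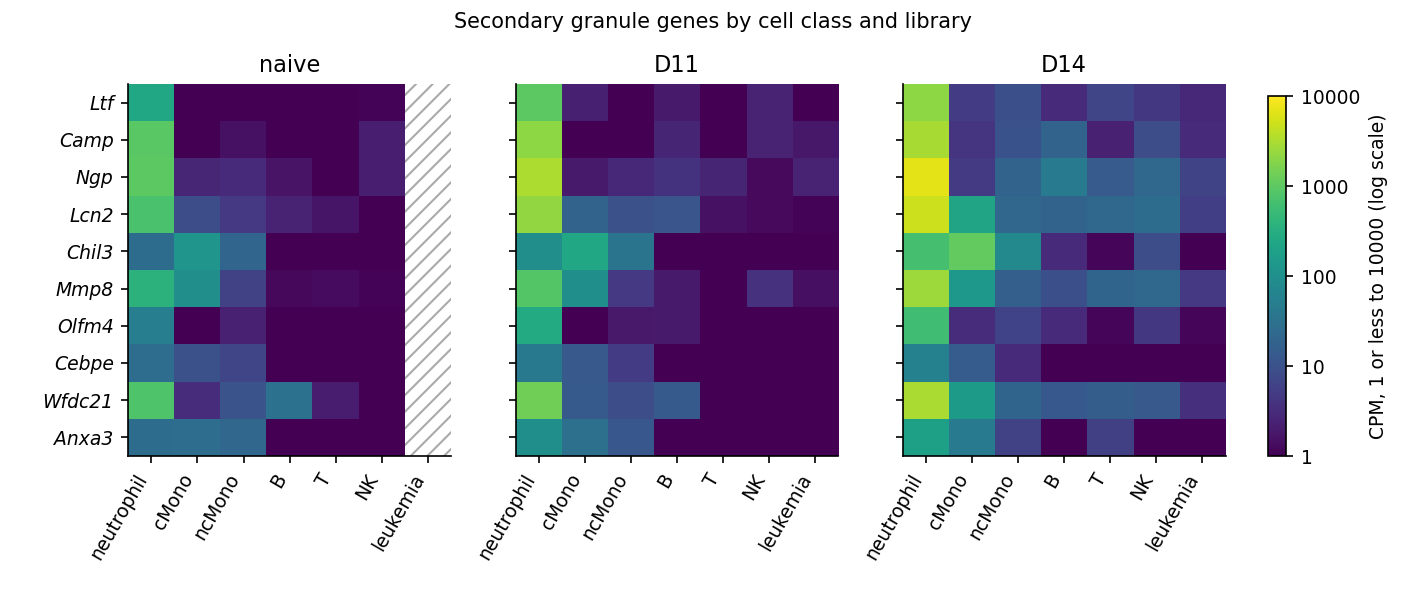
Level of each gene (CPM of summed UMIs, colour on a log scale from 1 or less to 10000) by cell class in the naive, D11 and D14 libraries. cMono and ncMono are classical and non-classical monocytes, and the hatched column marks naive leukemia cells, of which there were 3. The neutrophil column is brightest for most genes. In the cMono column Chil3 reaches 1113 CPM in D14 while Ltf, Camp, Ngp and Olfm4 stay at 5.21 CPM or below.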

How the data were processed

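The authors prepared 10x Genomics 3′ v3 libraries and deposited filtered matrices of raw UMI counts for 3 libraries. The submitters' processing notes name Cell Ranger 7.1.0 and mm10, and the matrix headers name version 5.0.1. The 10 genes and all lists were chosen with earlier results of these data known. Cells of 200 genes or more with no more than 10% mitochondrial UMIs entered, and classes were set by marker gates, each needing 2 or 3 markers, in cells under the neutrophil gate. UMIs were summed per class and library. CPM have exact Poisson, shares Clopper-Pearson and ratios conditional binomial 95% intervals (scipy 1.17.1). These cover counting error only. A ratio against 0 used a floor of 3 counts. With 1 library a condition there was no test. Doublets stayed in, and an alternative removed the top Scrublet scores (scanpy 1.11.5), 116, 167 and 156 cells. Named genes were the 10 members, the listed genes and the 10 closest by lowest r. Alternatives changed the cell filter, the gates, the cut and the scaling (edgeR 4.0.16 TMM factors, DESeq2 1.42.0 size factors). Scripts were tested on simulated data.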

Additional observations from a re-analysis of the deposited data

Results flagged for a closer look

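Anxa3 had opposite directions in 2 cell types of the same libraries. Its D14 over naive log2 ratio was -1.80 in non-classical monocytes (27 UMIs in naive, 40 in D14) and 2.86 in neutrophils, and the difference was not tested because there was 1 library a condition.

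Cells below the neutrophil gate also held these transcripts. Ltf, Camp and Ngp reached 1% of UMIs in 9 such cells in D11 and in 24 in D14, against 0 of 2584 in naive, which by the floor of 3 counts allows a share of up to 0.116%. None of these D11 and D14 cells fell in a monocyte, lymphocyte or leukemia class, and 3 of the 24 were rich in hemoglobin. Their median share of S100a8 and S100a9 UMIs was 1.22% in D11 and 1.24% in D14.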

How the results depend on the processing

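In neutrophils all 10 genes were higher in D11 and in D14 than in naive cells under each of the 13 alternatives run on them, with medians below where they left the counting interval (1.68 in D11 and 2.81 in D14 as reported, log2). With the gate at 5% of S100a8 and S100a9 the median was 1.499 in D11 and 2.59 in D14, and with the gate without these genes 2.06 in D14. This last gate held 1774 D14 cells in place of 1065, some of them otherwise classed as monocytes. The median was 1.77 in D11 without hemoglobin-rich cells, 1.49 in D11 without cells that passed another gate and 1.60 in D11 without the highest doublet scores. As a mean of per-cell CPM it was 1.92 and 3.07, with TMM factors 1.89 and 2.94, with DESeq2 size factors 1.89 and 2.94, without S100a8, S100a9 and the 10 genes in the total 1.73 and 2.94, and without ribosomal, mitochondrial and hemoglobin genes 1.77 in D11. From 7 to 8 of the 10 stayed 2-fold higher in D11 and from 8 to 10 in D14. The granule-rich share kept the order naive, D11, D14 throughout. It was 12.7% in D14 with the gate without S100a8 and S100a9, 25.4% in D14 with a cut of 0.5%, and 4.60% in D11 and 14.1% in D14 with a cut of 2%. In classical monocytes the D14 over naive log2 ratio of Lcn2 was 6.60 without the highest doublet scores, against 4.63. In those with under 0.5% of S100a8 and S100a9 the ratios were 6.67 for Lcn2, 2.89 for Chil3 and 7.33 for Wfdc21, and under 0.1% they were 5.99 for Lcn2 and 2.77 for Chil3. With 1.5-fold in place of 2-fold, 3.77% of genes were higher and 8.19% lower in D11 neutrophils, and 12.5% higher and 21.0% lower in D14. The median of cell cycle genes in D14 neutrophils was reversed, at -0.18, without cells that passed another gate. Its cause, like that of the other shifts, was not tested. Of 596 comparisons of single genes, lists and shares, 416 stayed within their interval or limit, and of the 124 others 95 did, with the 29 that moved given above. The 1 library a condition, the 13 naive granule-rich cells and the 112 D14 classical monocytes limit precision. No paired analysis was possible because each condition has 1 library.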

Other observations

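The genes whose levels over single neutrophils ran most opposite to the sum of the 10 secondary granule genes, chosen after their values were seen, were led by Malat1, Il1b, Csf3r, Neat1 and Srgn. Pearson r was -0.31, -0.36 and -0.48 for Malat1 in naive, D11 and D14, and -0.27, -0.54 and -0.62 for Il1b, the cytokine interleukin 1 beta. Csf3r, which receives the G-CSF signal, had -0.25, -0.52 and -0.55. Malat1 and Neat1 are long noncoding RNAs held in the nucleus, and over all neutrophils Malat1 stood at 26832 CPM in naive and 14572 CPM in D14. Over all neutrophils Srgn, the proteoglycan core of granules, stood at 5056 and 3104 CPM.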
